A study of Mus musculus with 4 samples.

Results

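The genes examined here encode laminin-332 chains, the integrin that binds laminin-332 and the proteins that complete the hemidesmosome: Lama3, Lamb3, Itga6, Itgb4, Col17a1, Cd151, Dst and Plec. The values came from all probe sets that the platform annotation pairs with 1 of these 8 symbols and no other gene, which gave 20 of the 45101 probe sets on the array. A further probe set, annotated to Plec and another gene, was left out. A filter on dim probe sets, set at a mean quantile-normalized signal of about 19.4, was passed by 16 of the 20 probe sets and by 7 of the 8 genes. Col17a1 was the gene that did not pass.

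The samples were cultures of 4T1, a mouse mammary carcinoma cell line grown in RPMI medium with bovine serum under normoxia, whose cells were picked by hand under a dissecting microscope. The groups were CD44v8-10-positive 4T1 cells and CD44v8-10-negative 4T1 cells, with 2 samples each. CD44v8-10 is a splice form of the hyaluronan receptor CD44 that carries variant exons. No other genetic or drug treatment is named in the labels, and both groups are the same line. Total RNA of each sample was hybridised to a one-colour Affymetrix array. The design asked how much gene expression differs by CD44v8-10 status. The labels do not say that the samples of a group came from separate cultures, so their spread may be technical. In these bulk samples fewer cells of a type and less RNA per cell cannot be told apart.

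Laminin-332 is a trimeric protein of the epithelial basement membrane, secreted by basal cells of skin and mammary gland. It is bound by the integrin of an alpha6 chain (Itga6) and a beta4 chain (Itgb4), and together with collagen XVII (Col17a1) and the tetraspanin Cd151 this integrin forms the membrane part of the hemidesmosome. Inside the cell the plakins plectin (Plec) and dystonin (Dst) tie the complex to keratin filaments.

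The deposited arrays differed in brightness, with trimmed mean intensities of 237 and 220 for the positive and 196 and 345 for the negative samples. Signals below are after quantile normalization, and differences are log2 fold changes of log2(signal + 16), positive minus negative. All 4 epithelial markers were measured: the keratins Krt8 and Krt18 had signals from 7719 to 12998, and E-cadherin (Cdh1) from 2139 to 3704, each with overlapping groups. The fourth, the adhesion molecule Epcam, had 2309 and 2479 in the positive arrays against 940 and 930 in the negative ones and was called higher (limma, log2 fold change 1.34). Of the basal and myoepithelial markers, 4 of 6 were above the filter (Krt5, Krt14, Trp63, Acta2), of which Krt5 passed only through its positive arrays. The summed signal of these markers was 832 and 974 in the positive arrays against 330 and 249 in the negative ones. Krt14 alone made up most of that sum, at 681 and 831 against 218 and 149, while Trp63 (log2 fold change 0.0081) and Acta2 (0.18) had overlapping groups.

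Members and lists were chosen with results of this same contrast known, in which Lama3 was among the called genes. The members' differences are therefore a description of these 4 arrays. Of the 7 member genes tested, 1 gene, Lama3, was called higher and 0 lower (limma, adjusted p under 0.05 over 11956 genes), where 0.0753% of all genes were called, and nothing is read from that count. At an unadjusted p under 0.05 the higher members were 2, Lama3 and Itgb4, and the lower 0, where 4.45% of all genes passed in either direction. The log2 fold change was above 0 in 4 member genes and below 0 in 3, where 54.3% of all genes lay above 0. The median was 0.31 for the members and 0.03 for all genes tested. Arrays of the groups did not overlap in 4 of the 7, 3 higher and 1 lower, where 32.3% of all genes had groups that did not overlap, 18.5% higher and 13.8% lower.

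**Figure D1:**
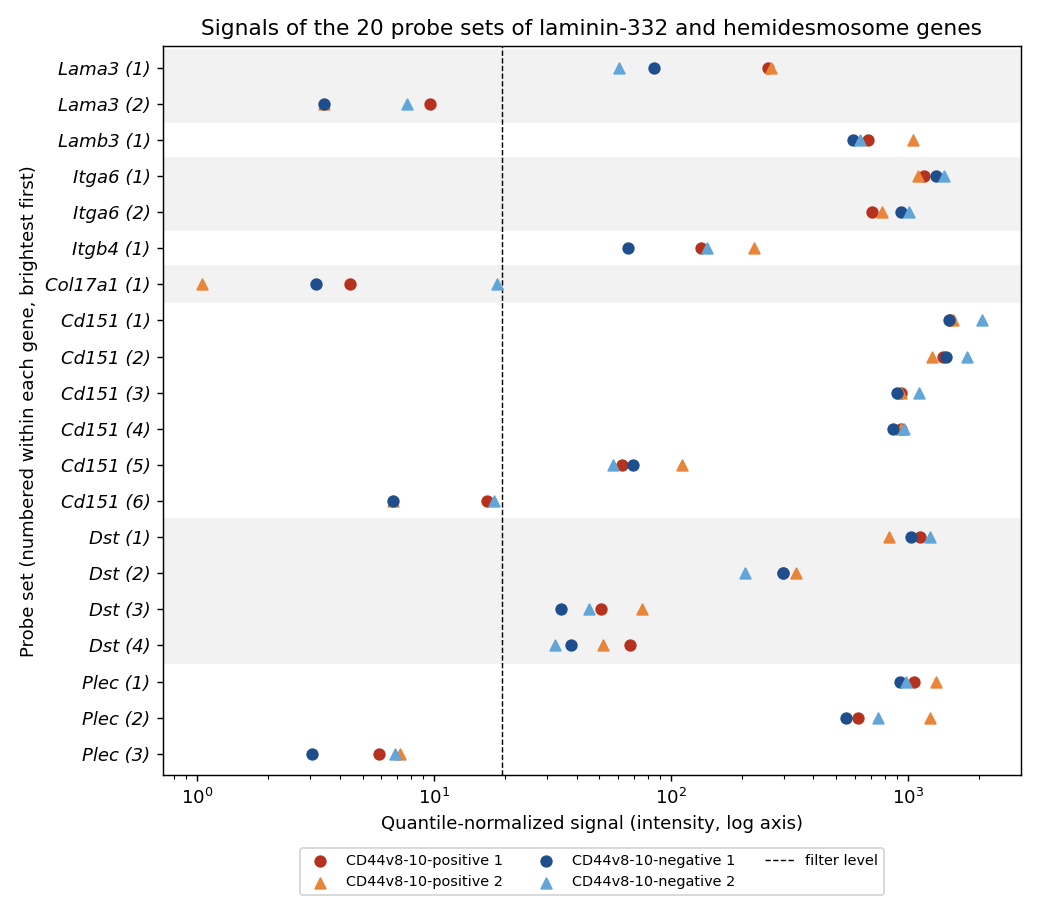
Quantile-normalized signal (intensity, log axis) of each of the 20 member probe sets, numbered within a gene from the brightest, with 1 point per array and the filter level of 19.4 as a dashed line. The brightest Lama3 probe set has its positive arrays at 257 and 265 and its negative arrays at 84.6 and 60.3, while 4 probe sets, among them the single one of Col17a1, lie below the filter level on every array.

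Lama3 encodes the alpha3 chain, which carries the integrin-binding end of laminin-332. Its signal was 257 and 265 in the positive arrays against 84.6 and 60.3 in the negative ones. Both positive arrays were thus about equal and above both negative arrays. The deposited values before normalization, 233 and 234 against 63.5 and 86.2, were separated in the same way. The log2 fold change was 1.66 ± 0.25 (SE, n = 2 in each group), a 3.16-fold difference on the log2(signal + 16) scale, and ranked 14 among the 11956 genes tested. The 4 differences between a positive and a negative array ran from 1.44 to 1.88. Lama3 kept a value of at least 1.26 in every alternative run, but it did not pass the threshold with any of the 4 arrays left out, with arrays scaled to one trimmed mean or not scaled, without the filter, without the intensity trend, or when each probe set was tested separately.

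A second Lama3 probe set gave no measurable level. Its signals were 9.63 and 3.43 in the positive arrays against 3.43 and 7.70 in the negative ones, all below the filter level, so the difference of Lama3 rests on 1 probe set.

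Lamb3 encodes the beta3 chain, which pairs with alpha3 in the trimer and is specific to laminin-332 among the classical laminins. Its probe set had signals of 680 and 1052 in the positive arrays against 587 and 627 in the negative ones. The groups did not overlap, although positive replicate 1 stood close to the negative arrays and positive replicate 2 stood apart. The log2 fold change was 0.47 ± 0.24 (SE, n = 2 each; 95% interval -0.04 to 0.98), 1.38-fold. It was 0.16 without positive replicate 2 and 0.77 without positive replicate 1, so that 1 array set most of its size.

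RefSeq promoter windows, from 250 bases before to 50 bases after an annotated start, were used for 4 of the 8 members (Lamb3, Col17a1, Cd151 and Dst), with 7 start sites in all. These are the starts held in the promoter set used, and the genes may have others. The annotated Lamb3 gene, for example, begins upstream of its windows, at position 193294353. Lama3, the called member, was not part of this search. The windows were searched on both strands for TGANTCA, the AP-1 motif, and for CACCTG, an E-box bound by repressors of epithelial genes in the Zeb and Snail families. TGANTCA was found in 0 of the 7 windows, where 7.81% of all 32851 windows hold it, and CACCTG in 4 of the 7, where 20.2% of all windows hold it. With no TGANTCA match in these windows, an overlap of the motifs could not arise. The Lamb3 windows are shown because Lamb3 had separated groups, and its neighbouring start sites differ in these letters: the second holds CACCTG at 2 places, starting 6 bases before and 4 bases after the start. They lie on the plus strand of GRCm38.p6 at chr1:193301744-193302043 and chr1:193301993-193302292, overlap at one end and are written 5′ to 3′ with CACCTG in capitals. A match is a description of the letters and not a bound site.
Lamb3 start 1: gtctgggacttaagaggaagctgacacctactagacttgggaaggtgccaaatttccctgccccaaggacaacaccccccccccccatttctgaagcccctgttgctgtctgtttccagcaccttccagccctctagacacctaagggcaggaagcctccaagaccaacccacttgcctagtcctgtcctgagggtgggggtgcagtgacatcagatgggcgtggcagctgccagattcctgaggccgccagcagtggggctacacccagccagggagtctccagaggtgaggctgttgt
Lamb3 start 2: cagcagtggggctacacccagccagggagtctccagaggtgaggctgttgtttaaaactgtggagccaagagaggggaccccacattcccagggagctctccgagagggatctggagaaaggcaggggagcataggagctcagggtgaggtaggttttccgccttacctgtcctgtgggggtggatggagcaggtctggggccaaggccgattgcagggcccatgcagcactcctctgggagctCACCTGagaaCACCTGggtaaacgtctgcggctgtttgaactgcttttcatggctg

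The integrin chains had values on opposite sides of 0. Itgb4, whose long cytoplasmic tail nucleates the hemidesmosome plaque, had signals of 134 and 225 in the positive arrays against 65.9 and 142 in the negative ones. The groups overlapped, since negative replicate 2 lay above positive replicate 1. Its log2 fold change was 0.74 ± 0.34 (SE, n = 2 each; 95% interval 0.01 to 1.48), the second highest of the members. It ran from 0.27 without negative replicate 1 to 1.18 without negative replicate 2, and was 0.41 without positive replicate 2.

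Itga6, the alpha6 chain that pairs with beta4 or, in other adhesions, with beta1, had signals of 1175 and 1104 in the positive arrays against 1314 and 1428 in the negative ones. Both positive arrays lay below both negative ones, by a small margin. The log2 fold change was -0.26 ± 0.19 (SE, n = 2 each; 95% interval -0.67 to 0.14). The second Itga6 probe set had 708 and 776 in the positive against 942 and 1015 in the negative arrays, with a log2 fold change of -0.39 ± 0.20 (SE). Both probe sets of Itga6 thus lay below 0 with separated groups, and the brighter one stayed below 0 in all alternatives run, between -0.46 and -0.21. The 2 probe sets were designed on the same sequence record and are not independent measurements of the gene.

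Col17a1, the transmembrane collagen that is a defining component of mature hemidesmosomes, stayed below the filter level by its single probe set. Its signals were 4.43 and 1.05 in the positive arrays against 3.17 and 18.4 in the negative ones. All 4 lay below the filter level of 19.4, and no fold is given.

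Cd151, the tetraspanin that associates with laminin-binding integrins, was covered by 6 probe sets, of which 5 passed the filter. The brightest had signals of 1513 and 1560 in the positive arrays against 1494 and 2052 in the negative ones. The groups overlapped, with negative replicate 2 above the rest. The log2 fold change was -0.19 ± 0.20 (SE, n = 2 each; 95% interval -0.62 to 0.24), and 0.04 without negative replicate 2. The remaining 4 that passed gave -0.26, -0.09, 0.03 and 0.34, so the direction depended on the probe set. The brightest and those at -0.26 and -0.09 are less specific probe sets, and those at 0.03 and 0.34 are not. The highest came from the dimmest of the 5, at 62.2 and 112 against 69.5 and 57.1, where positive replicate 2 was high.

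**Figure D2:**
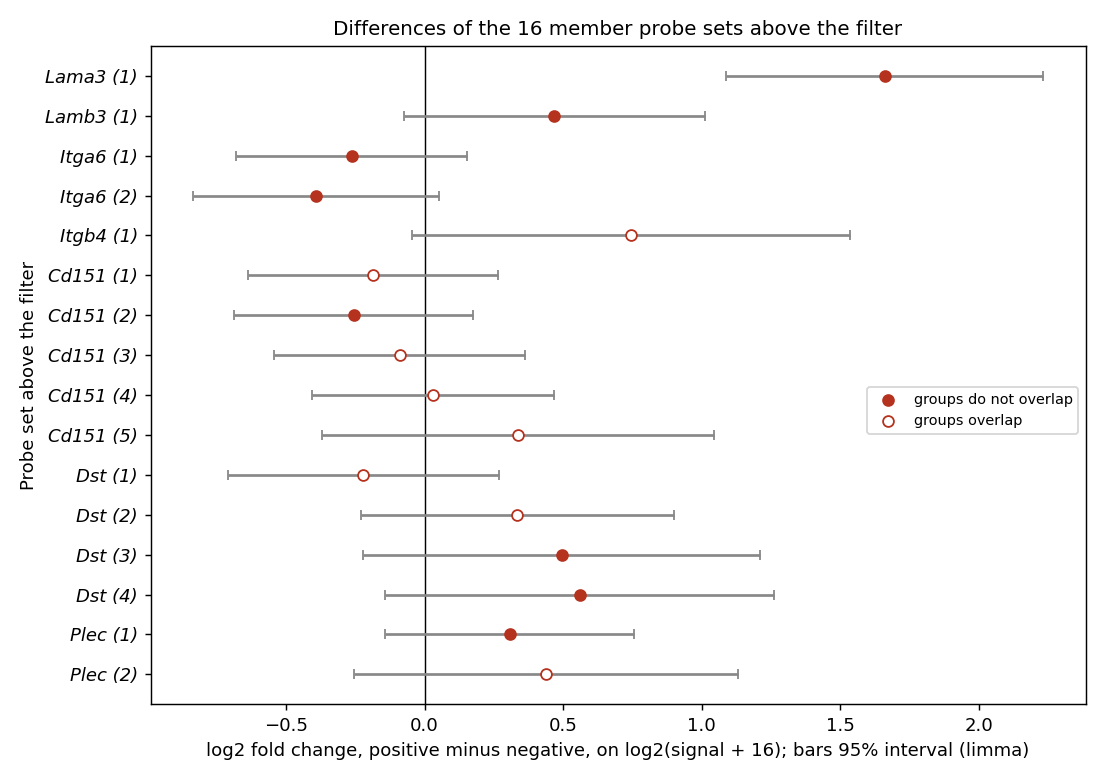
Log2 fold change (positive minus negative, on log2(signal + 16)) of the 16 member probe sets above the filter, with 95% intervals from limma fitted to every probe set on its own; filled points mark groups that do not overlap. The interval of the brightest Lama3 probe set lies above 0 and those of the other 15 include 0; the Dst and Cd151 probe sets lie on both sides of 0.

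The plakins of the plaque gave mixed values. Plectin (Plec), which links the beta4 tail to keratins, had signals of 1066 and 1324 in the positive arrays against 926 and 989 in the negative ones. The groups did not overlap, with positive replicate 2 highest. The log2 fold change was 0.31 ± 0.20 (SE, n = 2 each; 95% interval -0.13 to 0.74), and 0.16 without positive replicate 2. A second Plec probe set had 620 and 1238 against 549 and 752, with a log2 fold change of 0.44 ± 0.31 (SE) and overlapping groups, and the remaining one lay below the filter level.

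Dystonin (Dst) is made in several isoforms, of which an epithelial one belongs to the hemidesmosome, and its 4 probe sets had values on both sides of 0. The brightest had signals of 1127 and 837 in the positive arrays against 1034 and 1247 in the negative ones. These overlapped, and the log2 fold change was -0.22 ± 0.21 (SE, n = 2 each; 95% interval -0.69 to 0.24). The other 3 lay above 0, and with the mean of the 4 probe sets Dst was at 0.29.

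Of these 3, the next brightest Dst probe set had 297 and 338 against 299 and 205, a log2 fold change of 0.33 ± 0.25 (SE) with overlapping groups. The dimmest pair, designed on one shared transcript record, had 50.8 and 75.4 against 34.4 and 45.0, and 67.6 and 51.9 against 38.0 and 32.4. In both of them the positive arrays lay above the negative arrays, with log2 fold changes of 0.50 ± 0.32 and 0.56 ± 0.32 (SE). Which isoforms the probe sets detect was not analysed here.

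The promoter windows of the 2 Dst starts in the promoter set used are shown because the gene's probe sets differ in direction and these starts lie far apart. The annotated gene begins upstream of both windows, at position 33907888, so other starts may exist. They lie on the plus strand of GRCm38.p6 at chr1:34011345-34011644 and chr1:34160010-34160309, written 5′ to 3′ with CACCTG in capitals. The motif starts 137 bases before the first start and 16 bases after the second, and G and C make up 70.3% of the first window and 46.0% of the second.
Dst start 1: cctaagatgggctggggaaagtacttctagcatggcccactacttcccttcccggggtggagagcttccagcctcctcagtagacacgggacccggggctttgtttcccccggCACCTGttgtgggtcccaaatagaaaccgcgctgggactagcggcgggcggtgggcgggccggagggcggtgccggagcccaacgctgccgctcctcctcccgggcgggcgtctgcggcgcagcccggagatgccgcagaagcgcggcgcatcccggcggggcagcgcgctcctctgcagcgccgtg
Dst start 2: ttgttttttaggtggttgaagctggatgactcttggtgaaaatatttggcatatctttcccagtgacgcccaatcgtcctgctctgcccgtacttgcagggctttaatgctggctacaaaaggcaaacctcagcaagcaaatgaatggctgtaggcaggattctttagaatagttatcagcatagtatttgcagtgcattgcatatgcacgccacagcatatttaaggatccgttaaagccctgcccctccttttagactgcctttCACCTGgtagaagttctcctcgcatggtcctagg

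Across the 16 member probe sets above the filter, 10 lay above 0 and 6 below, and in 8 the groups did not overlap, 5 higher and 3 lower, where 33.2% of all 27022 probe sets above the filter had groups that did not overlap, 16.5% higher and 16.7% lower. The highest of the 4 arrays was positive replicate 2 in 8 of the 16 and negative replicate 2 in 7. Over all probe sets above the filter these arrays were highest in 31.5% and 25.2%. Negative replicate 1 was highest in 0 of the 16 and lowest in 8, against 24.0% and 22.0% of all probe sets. Values of Lamb3, Itgb4 and Plec were lower by more than 1.5 times when positive replicate 2 was left out, as given above. That of Dst went from -0.22 to -0.01 without that array, and that of Lama3 was 1.66 with and without it.

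**Figure D3:**
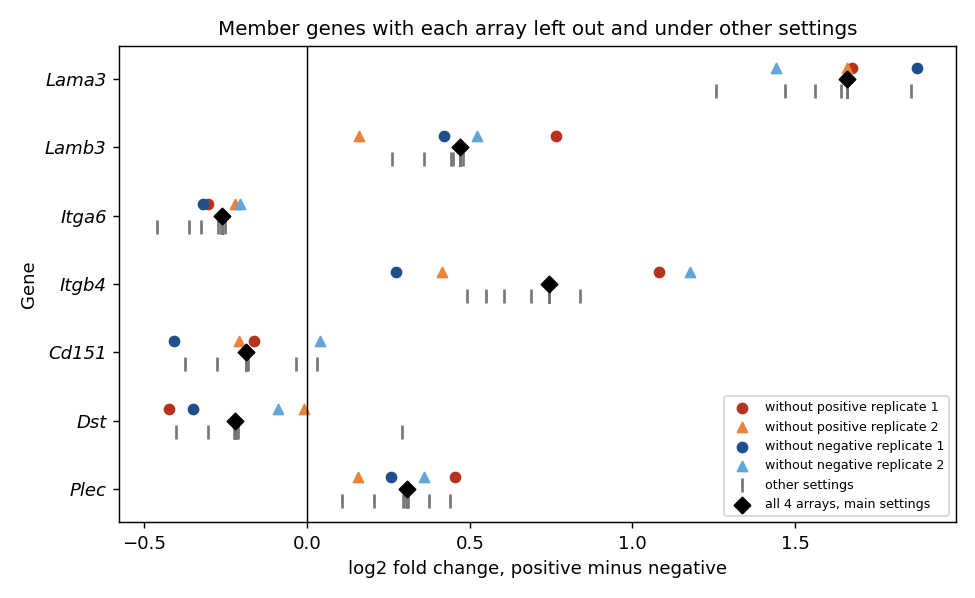
Log2 fold change (positive minus negative) of the 7 member genes tested, with all 4 arrays (diamond), with each array left out (coloured points) and under the other settings (grey ticks). Lama3 stays between 1.26 and 1.88, Lamb3, Itgb4 and Plec stay above 0, Itga6 stays below 0, and Cd151 and Dst appear on both sides of 0.

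The array profile closest to that of Lama3, measured as the root mean square distance between log2 values over the 4 arrays after centring each gene on its own mean, was that of the interleukin-1 family member Il1f10, at 0.11. It was followed by the tight junction claudin Cldn3 (0.15), the deglycosylating enzyme Engase (0.16), the basal keratin Krt14 (0.18) and the proteolipid Mal (0.21). No other member was among these. Il1f10, Engase and Mal were dim: they were not tested with the filter at the 60th percentile, and limma called none of them with the main settings. Mal was called with arrays centred on their median and with the replicate number as a block. Engase was also not tested with either positive array left out, so its place rests on the group where it is high. With pseudocounts of 64 and 1 the log2 fold change was 0.81 and 3.13 for Engase, and 0.73 and 2.47 for Il1f10. Such a spread arises where the negative arrays lie near background. The place of Il1f10 thus also rests on its positive arrays, and nothing is read from the place of either gene. The nearest member to Lama3 was Lamb3, at 0.65, which ranked 776. For Lamb3 the 5 closest profiles, at distances of 0.02 to 0.04, were those of Aplp2, Gon4l, Gpr20, Ust and Cln6, which shared its high value in positive replicate 2. The nearest member to Lamb3 was Plec, at 0.14, which ranked 370. With 4 arrays many genes share such a shape, and the distances are a description of these arrays.

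Genes that work alongside the members were taken from 5 lists, and log2 fold changes are given for genes named whatever their values. Among keratins, plakins and linkers that anchor the plaque, 7 of 10 listed genes were tested. All 7 lay above 0 with a median of 0.59, and 5 had groups that did not overlap, each higher in the positive arrays. Over all genes tested, 54.3% lay above 0 and 32.3% had groups that did not overlap, 18.5% higher, with a median of 0.03. The list was chosen with this contrast known, and nothing is read from these counts. The same shares stand beside the counts of the lists below. Krt14, a keratin of basal epithelial cells, was the one called (limma, 1 higher and 0 lower, with 2 genes passing at an unadjusted p under 0.05).

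Krt14 had signals of 681 and 831 in the positive arrays against 218 and 149 in the negative ones, a log2 fold change of 1.97 ± 0.24 (SE, n = 2 each), and its second probe set gave 2.03. Its partner Krt5 was dim, at 22.7 and 57.4 in the positive arrays against 6.05 and 18.4 in the negative ones, with a log2 fold change of 0.95 ± 0.46 (SE). Both negative arrays of Krt5 lay below the filter level, so it passed the filter only through its positive arrays and that fold is no exact size. Krt5 was not tested without positive replicate 2 or with the filter at the 60th percentile. It is counted among the genes of this list above 0 with separated groups, and nothing is read from its direction. Ladinin (Lad1), an anchoring filament protein, had 0.29 ± 0.20 (SE), and Krt17 lay below the filter.

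Of the other laminin chains, 5 of the 8 measured were tested and 0 were called by limma in either direction, nor were any at an unadjusted p under 0.05. Their median log2 fold change was 0.11. Lamb1, a chain of the widely expressed laminins, had signals of 1818 and 1558 in the positive arrays against 1967 and 1962 in the negative ones. Its log2 fold change was -0.22 ± 0.18 (SE, n = 2 each) with separated groups. Its other probe sets gave -0.03 and 0.20 with overlapping groups, and the dimmest gave -0.49 with separated groups. Lamc1 had 0.04 ± 0.23 (SE), which was -0.06 with arrays centred on their median and -0.16 with no scaling, and Lama5 had 0.18 ± 0.32 (SE), which was -0.03 with no scaling. With 1 array left out Lama5 ran from -0.28 (without positive replicate 2) to 0.63 (without positive replicate 1), and Lamc1 from -0.14 to 0.23 (without negative replicate 1 and 2 in turn). The chains Lama1, Lama2 and Lama4 lay below the filter.

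Other basement membrane components had 10 of 18 genes tested, of which 7 lay above 0 and 3 below; the median was 0.21 and 0 were called by limma (at an unadjusted p under 0.05 there was 1, higher, Agrn, which was not in the list of fixed names and was chosen after its value was seen). The heparan sulfate proteoglycan perlecan (Hspg2) had 225 and 371 in the positive arrays against 212 and 197 in the negative ones, a log2 fold change of 0.47 ± 0.26 (SE, n = 2 each), which was 0.13 without positive replicate 2. The anchoring fibril collagen Col7a1 had 0.20 ± 0.22 (SE) with overlapping groups. Nidogen (Nid1), which links laminin to collagen IV, lay below the filter.

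Other laminin receptors and their partners had 11 of 12 genes tested, 0 called by limma and 0 at an unadjusted p under 0.05, and a median of 0.10. The chains of the alternative laminin-332 receptor, Itga3 and Itgb1, had 0.12 ± 0.23 and 0.27 ± 0.17 (SE, n = 2 each) with overlapping groups in their brightest probe sets. Itga3 was -0.02 with no scaling. Another bright Itgb1 probe set had separated groups, at 4421 and 4549 in the positive arrays against 3687 and 4057 (log2 fold change 0.21). A dimmer one was also separated (0.46), and the dimmest, at 0.24 and -0.06, overlapped. Dystroglycan (Dag1), at 0.08 ± 0.21, was -0.03 with arrays centred on their median and -0.13 with no scaling. The tetraspanins Cd9 and Cd81 had -0.06 ± 0.15 and 0.10 ± 0.20 (SE), and Cd81 was -0.08 with no scaling. Without positive replicate 2 Itga3 was -0.25, Dag1 -0.12 and Cd81 -0.14, and without positive replicate 1 they were 0.49, 0.27 and 0.34.

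Proteases that process laminin-332 or shed collagen XVII had 9 of 11 genes tested, 3 above 0 and 6 below, a median of -0.07, and 0 called by limma or at an unadjusted p under 0.05. Bmp1, which trims the laminin chains, had -0.07 ± 0.22 (SE, n = 2 each). The membrane metalloprotease Mmp14 had 0.03 ± 0.22 and the sheddase Adam17 0.09 ± 0.21. With no scaling Mmp14 was -0.18 and Adam17 -0.11, and with arrays centred on their median they were -0.08 and -0.0084. The urokinase Plau had -0.13 ± 0.27, which was 0.24 without negative replicate 1 and -0.51 without negative replicate 2. Bmp1 was 0.16 without positive replicate 1 and 0.03 without negative replicate 2, and Mmp14 was -0.23 without positive replicate 2.

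**Figure D4:**
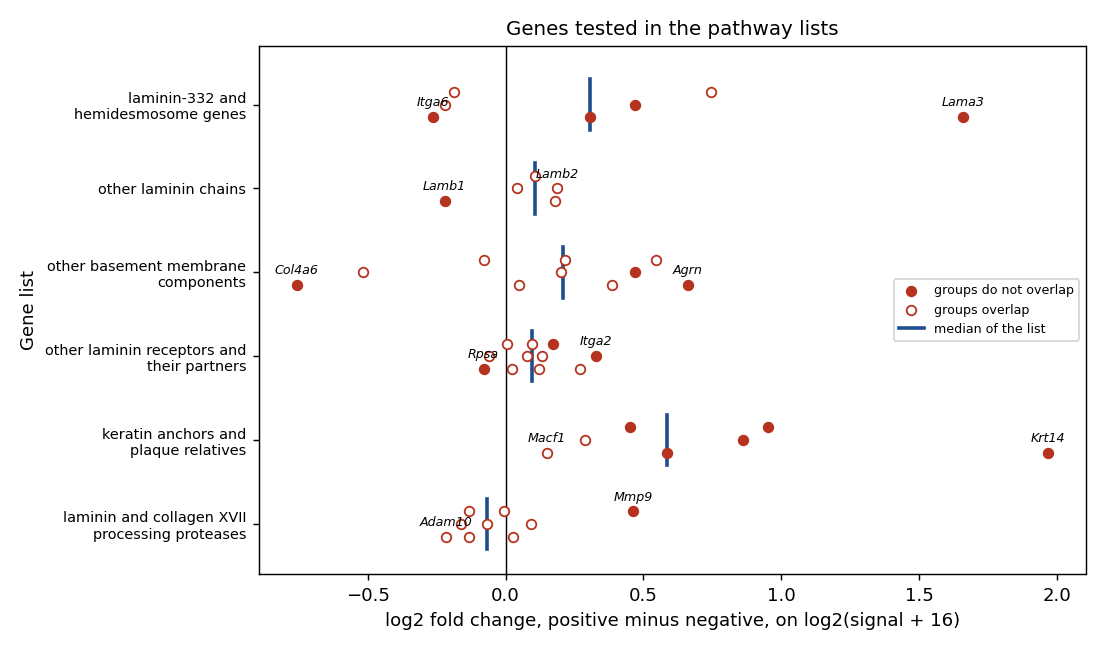
Log2 fold change (positive minus negative, on log2(signal + 16)) of each gene tested in the members and in 5 related lists; filled points mark groups that do not overlap, bars the median of a list, and the lowest and highest gene of each list are named. Lama3 at 1.66 and Krt14 at 1.97 stand apart from the other genes, which lie between -0.76 and 0.95.

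Markers of other cell types were dimmer than the epithelial markers and not level. Of 7 macrophage markers, 4 passed the filter (Adgre1, Cd68, Csf1r and Cd14), with a summed signal of 439 and 552 in the positive arrays against 365 and 344 in the negative ones. The brightest of them, Cd14, had 226 and 259 against 188 and 180, which is in the range of Lama3. Lyz2, Ptprc and Tyrobp were below the filter. Of 8 fibroblast markers, 3 passed (Col1a2, Pdgfra and Pdpn). Their summed signal was 117 and 113 in the positive arrays against 163 and 147 in the negative ones. Only Pdgfra among them lay below 0 (log2 fold change -0.94), with separated groups. Pdpn was higher in the positive arrays with separated groups (0.37), and Col1a2 had overlapping groups (0.04). The lower sum is thus not a decrease shared by these markers. Of 5 endothelial markers, 0 passed. No marker was listed at 0. The macrophage sum, Krt14 and Epcam were higher in the positive arrays, as was Lama3, and the part of other cells in the members' values was not tested.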

How the data were processed

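Total RNA of 2 CD44v8-10-positive and 2 CD44v8-10-negative 4T1 samples was measured on one-colour Affymetrix arrays. The deposited values were linear intensities per probe set. The submitters' processing notes name GCOS, and how the authors summarised or scaled the intensities is not given in the sources used here. Arrays were quantile normalized, transformed as log2(value + 16) and filtered at the 40th percentile of the mean, without 64 control probe sets. This left 27022 probe sets, and the brightest of each gene gave 11956 genes. A fold on this scale understates differences of dim genes.

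Gene names came from GEO's platform annotation. Groups, taken from sample titles, were compared with limma 3.58.1 in R 4.3.3 (intensity trend, two-sided, Benjamini-Hochberg, threshold 0.05; checked on simulated data). The 2 arrays per group limit the precision. Members, lists and tests were chosen with earlier results of these data known. Named were all members, a fixed set of pathway genes (those with no probe set named are not analysed here), called list genes and the 5 profiles nearest to Lama3 and to Lamb3, without clone names. Alternatives changed scaling, pseudocount, filter, probe set choice, variance trend, replicate block and arrays used. Promoter sequences are RefSeq's.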

Additional observations from a re-analysis of the deposited data

How the results depend on the processing

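The number of genes called, 9 with the main settings, was 3 with no scaling between arrays, 3 with no filter, 2 with no intensity trend, and 6 to 16 with an array left out, the 16 without positive replicate 1. With the replicate number as a block (replicate block) it was 18. The correlation between groups of the difference of replicate 1 minus replicate 2 was 0.12, over 2 pairs, and the samples share only a number; Lama3 was the one member called with or without the block. The number of member genes called, 1 with the main settings, was 0 with a common trimmed mean, with no scaling between arrays, with no filter, with every probe set on its own, with no intensity trend, and 0 with each array left out in turn. Leaving out an array removes a sample, and dropping the filter or testing every probe set adds features. The cause of the change was not tested for any setting.

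With no scaling the median of all genes was -0.15, against 0.03, so values there are lower throughout. Of the 7 members tested, Cd151 turned from -0.19 to 0.03 with less specific probe sets left out and to 0.04 without negative replicate 2, and Dst from -0.22 to 0.29 with the mean of its probe sets; the other 5 kept their side of 0 in every alternative run. Col17a1 stayed below every filter used, and signal near background limits it, Krt5 and the dim Dst probe sets.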
